A study of Mus musculus with 45 samples.

Results

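The genes described here encode the nuclear subunits of respiratory complex I. They are the protein-coding mouse genes whose symbol is Nduf followed by a, b, c, s, v or ab and a digit, with the assembly factors (Ndufaf genes) left out. The rule found 38 of the 55385 genes in the expression tables, and 5 non-coding genes that match the pattern, 4 of them processed pseudogenes, were left out. By textbook structure, the 38 genes comprise 7 core subunits, 9 accessory subunits of the matrix arm, 19 accessory subunits of the membrane arm, the acyl carrier protein *Ndufab1*, and *Ndufa4* and *Ndufa4l2*, which carry the family name but lie outside the structure of the complex.

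Complex I (NADH:ubiquinone oxidoreductase) is the entry point of electrons from NADH into the mitochondrial respiratory chain, and it pumps protons across the inner membrane. Its L shape has a matrix arm, which carries the flavin, the iron-sulfur clusters and the quinone site, and a membrane arm, whose proton-pumping core subunits are encoded by the mitochondrial genome. Accessory subunits surround the core and are needed for assembly and stability, and pre-implantation embryos are known to move from pyruvate-based metabolism towards greater use of glucose and higher oxygen consumption as they approach the blastocyst.

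The study asked what the ETS-family transcription factor GABPA does in early mouse development, and measured RNA in 18 libraries from 4 stages. All groups, controls included, carried Gabpa dTAG/dTAG, that is, both *Gabpa* alleles fused to an FKBP degron, so that the compound dTAG13 leads to destruction of the GABPA protein while its solvent DMSO does not. Late 2-cell embryos (3 DMSO and 3 dTAG13 libraries) were treated from the zygote on, whereas morulae were treated from the 4-cell stage on and the E4.5 ICM later, by the study's text from the blastocyst (2 and 2 libraries each), all with 1 μM dTAG13, so the treatment windows differ between the stages. The fourth set was 2iES cells, E14-derived embryonic stem cells cultured in 2i/LIF medium, with 2 DMSO libraries and 2 libraries given 0.5 μM dTAG13 for 24 h. Embryos were made by in vitro fertilization of knock-in mice backcrossed to C57BL/6J. The ICM was isolated by immunosurgery and mixes epiblast (EPI) and primitive endoderm (PrE), and by the study's text it was collected at the mid-blastocyst stage despite the E4.5 label. The knock-in 2iES line was made by picking single clones, and the number of clones behind the libraries is not given in the sources used here.

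Summed expected counts ranged from 9457933 to 12382705 in the morula libraries and from 18266057 to 27660132 in the others. *Gabpa* RNA was not lower after dTAG13 at any stage, which is no check of the protein: its mean TPM went from 103 to 153 at the late 2-cell stage, from 7.40 to 13.2 in morulae, from 10.6 to 27.4 in the ICM and from 6.57 to 11.2 in 2iES cells. The stage labels went with their markers. The 8 two-cell genes summed to 342 to 865 TPM in the late 2-cell libraries and to 8.51 to 17.8 TPM in morulae, and the 10 PrE genes summed to 1.85 to 5.01 TPM in 2iES cells against 544 to 880 TPM in the ICM. In the ICM the 2 libraries of each group were nearly identical, with a median spread only 1.63 (DMSO) and 1.69 (dTAG13) times that of counting noise, against 8.17 to 16.1 times in 5 of the other groups and 2.84 times in dTAG13-treated 2iES cells. The study calls its replicates biological. The biological coefficient of variation estimated by edgeR was 0.0237 in the ICM and 0.159 to 0.284 at the other stages, and in the ICM 38.5% of all 15840 tested genes were called lower and 38.4% higher.

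GABPA recognises the ETS letters CCGGAAG, so the promoters of the subunit genes are shown first. RefSeq promoter windows of GRCm38.p6, from 250 bases before to 50 bases after each start, were found for 33 of the 38 genes, and *Ndufa2*, *Ndufa4l2*, *Ndufb9* and *Ndufs1* were among those without one. CCGGAAG, on either strand, was in the windows of 4 of the 33 genes (12.1%) and of 8.86% of all 32851 promoters. The matches are printed with 11 bases to each side, 5′ to 3′ on the strand of the gene, with the matching letters in capitals (CTTCCGG is the same motif on the other strand).
Ndufs3, chr2:90904731-90904759: cccgcgtccgcCCGGAAGaagagtcactg
Ndufs3, chr2:90904703-90904731: gcacatttccaCTTCCGGtccgtgccctt
Ndufs8, chr19:3912742-3912770: ttaggctccgcCTTCCGGttgaaccgcat
Ndufb7, chr8:83566727-83566755: gcctagatgacCCGGAAGacactgaaggg
Ndufb6, chr4:40279636-40279664: tcgtccttgttCTTCCGGtcccctcccct
The matches of *Ndufs3*, *Ndufs8* and *Ndufb7* lay between positions -27 and 22 counted from the start, and that of *Ndufb6* lay between -232 and -226. *Ndufs3*, *Ndufs8* and *Ndufb7* fell at the late 2-cell stage, in the ICM and in 2iES cells, as described further on, whereas *Ndufb6* rose in the ICM and in 2iES cells.

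The shorter core CGGAAG, which lies inside the longer motif and was added after the values were seen, was in 8 of the 33 windows (24.2%) and in 16.9% of all promoters. It added *Ndufa12*, *Ndufb5*, *Ndufa7* and *Ndufa9*, and the windows of *Ndufa12* and *Ndufb5* are shown because both genes fell at the same 3 stages.
Ndufa12, chr10:94199007-94199034: ttacccgaacaCGGAAGgggcggaccat
Ndufa12, chr10:94198979-94199006: gagtatctcgtCTTCCGcccggcgggtt
Ndufb5, chr3:32737051-32737078: ctccccacttcCTTCCGtggccggtgta
Because the core was added with these values known, the split that follows is a description and not a test of the motif. Of the 8 genes with the core, 5 were lower after dTAG13 at the late 2-cell stage, against 2 of the 25 without it (all genes, whatever their promoter, 7.24%). In the ICM 5 of the 8 were lower and 3 higher, and in 2iES cells 5 were lower and 2 higher, against 8 lower and 13 higher in the ICM and 4 lower and 10 higher in 2iES cells among the 25. The 2 genes without the core that were lower at the late 2-cell stage were *Ndufa13* and *Ndufa1*. The exact NRF1 motif (the site of nuclear respiratory factor 1, read on both strands) was in 7 windows (21.2%, against 4.60% of all promoters), those of *Ndufa11*, *Ndufa5*, *Ndufa6*, *Ndufa8*, *Ndufb4*, *Ndufs5* and *Ndufs6*. With TMM scaling and all libraries of a stage, edgeR called none of these 7 genes lower at any stage. Among all genes it called 7.24% lower at the late 2-cell stage, 0.205% in morulae, 38.5% in the ICM and 28.1% in 2iES cells. It called 5 of the 7 higher in the ICM (all genes, 38.4%) and 4 in 2iES cells (all genes, 26.5%). On the same libraries, 0 of the 7 had a negative change at an unadjusted p under 0.05 at any stage by edgeR, DESeq2 or limma. The exact YY1 motif, read on both strands, was in 4 windows (12.1%, against 0.852% of all promoters), those of *Ndufa9*, *Ndufs4*, *Ndufs6* and *Ndufs7*. A match is a description of the letters and does not show binding.

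In the DMSO controls the subunit genes rose steeply between the late 2-cell stage and the morula. Their median level went from 82.3 TPM (a transcript level scaled for length and for the depth of the library) to 337 TPM, and it was 438 TPM in the ICM and 483 TPM in 2iES cells. Of the 37 genes tested, 35 were higher in morulae by the edgeR quasi-likelihood test (Benjamini-Hochberg adjusted over all genes), where 31.2% of all genes were called higher, and the median log2 change was 2.19 against -0.28 for all genes. The single negative change was that of *Ndufa2* (-0.04 ± 0.15), a matrix arm subunit with a thioredoxin-like fold. *Ndufa2* was the most abundant of the 38 genes in late 2-cell controls, at 528, 622 and 612 TPM, and stood at 489 and 405 TPM in morulae. *Ndufs8*, a core subunit that holds iron-sulfur clusters, also did not pass, with 304, 349.6 and 296 TPM at the late 2-cell stage and 285 and 332 TPM in morulae.

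The steepest rises between these control stages were in small accessory subunits. *Ndufa3*, of the membrane arm, went from 22.8, 18.1 and 30.7 TPM to 1095 and 1070.3 TPM, a log2 change of 5.73 ± 0.17 (SE). *Ndufs6*, a zinc-binding subunit of the matrix arm, went from 27.3, 25.1 and 31.1 TPM to 763 and 724 TPM, a log2 change of 5.10 ± 0.15. *Ndufa5*, of the matrix arm, went from 51.8, 43.2 and 46.1 TPM to 882 and 770.3 TPM, a log2 change of 4.49 ± 0.15. *Ndufb4*, of the membrane arm, went from 9.87, 5.32 and 4.49 TPM to 162 and 145 TPM, a log2 change of 4.44 ± 0.20. None of the late 2-cell libraries came near the morula libraries for these 4 genes. Processed pseudogenes share sequence with several of them, with 15.1% of the 31-base words of *Ndufs6* and 19.1% of those of *Ndufb4* also found in another gene. Among genes described further on, this share was 25.4% for *Ndufs3*, 20.7% for *Ndufa12*, 17.2% for *Ndufb9*, 33.2% for *Ndufa13* and 34.4% for *Ndufb6*.

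From the morula to the ICM the control levels split in the edgeR fit, with 10 of the 37 genes lower and 11 higher (all genes, 21.0% and 24.6%). With upper-quartile scaling 14 were lower and 8 higher, and with library totals 8 and 13. The median log2 change was -0.02 in the edgeR fit and 0.39 with limma on log2(TPM + 1) (all genes, 0.12 with limma), so the balance depended on the method. *Ndufa12*, which sits where the electron-input part of the matrix arm joins the rest, had the largest fall, from 765 and 806 TPM to 445 and 437 TPM (log2 -1.26 ± 0.15). The largest rise was that of *Ndufv1*, the flavin-carrying core subunit, from 46.8 and 52.1 TPM to 121 and 119 TPM (log2 1.66 ± 0.23). Core subunits were 4 of the 11 higher genes and none of the lower ones. In 2iES cells 28 genes were higher than in the ICM and 1 was lower (all genes, 21.9% and 20.7%), and with library totals as the scale, which shifted the median of all genes to -0.33, 14 were higher and 4 lower. With upper-quartile scaling 0 were lower. *Ndufa4*, now counted as a subunit of cytochrome c oxidase, rose most, from 857 and 837 TPM to 2325 and 2431 TPM (log2 2.13 ± 0.18).

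**Figure D1:**
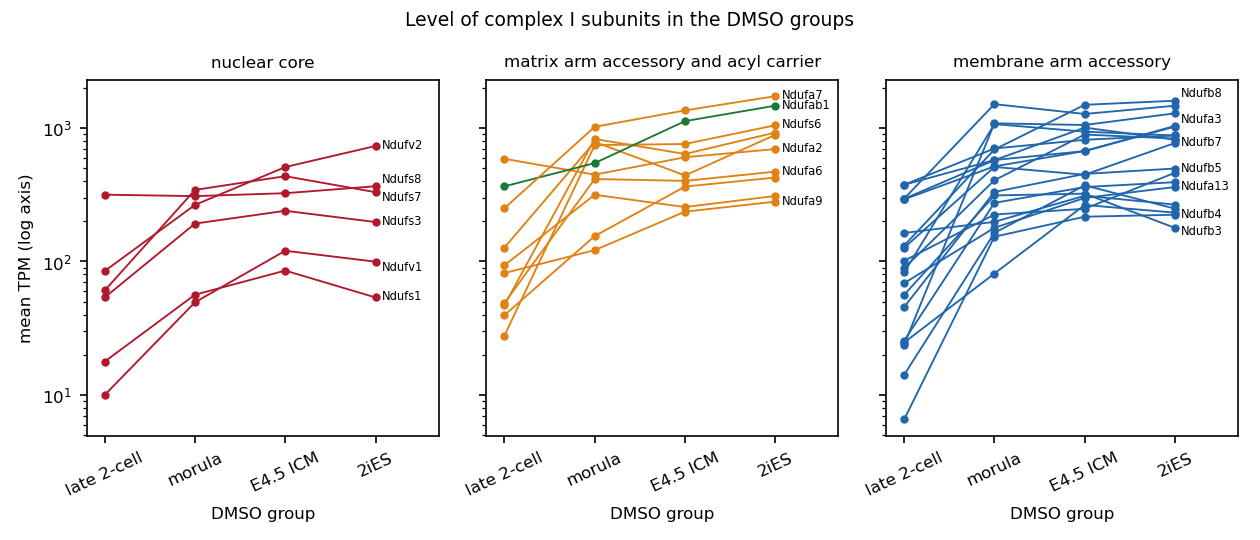
Mean TPM (log axis) of core, matrix arm, acyl carrier and membrane arm subunit genes in the DMSO libraries of the 4 stages, grouped by role. The late 2-cell points lie lowest for most genes, with a median of 82.3 TPM, while Ndufa2 and Ndufs8 stay near the same level at each of the embryo stages.

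Together the 7 core genes made up 10.9, 12.5 and 10.6% of the summed TPM of the 38 genes in late 2-cell controls, 6.81 and 8.26% in morula controls, 9.0% in both ICM controls and 7.60 and 6.89% in 2iES controls. After dTAG13 the share was 10.3, 10.97 and 9.66% at the late 2-cell stage and 8.23 and 7.76% in morulae, where the groups overlapped. It was 7.39 and 7.36% in the ICM and 4.41 and 4.39% in 2iES cells, below both controls in each case. The summed level of the 38 genes did not fall with it in those sets: it was 21022 and 20992 TPM with DMSO and 21437 and 21379 TPM with dTAG13 in the ICM, and 26968 and 24909 TPM against 31031 and 32473 TPM in 2iES cells. In these bulk samples, fewer cells of a type and less RNA per cell cannot be told apart.

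**Figure D2:**
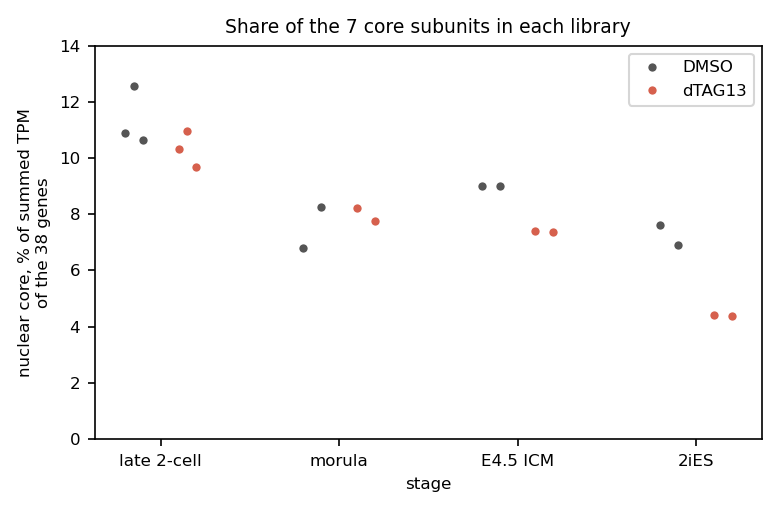
Share of the 7 core subunits in the summed TPM of the 38 genes, in percent, for each library (DMSO grey, dTAG13 red). In the ICM and 2iES cells both dTAG13 libraries lie below both DMSO libraries, at 7.39 and 7.36% and at 4.41 and 4.39%.

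At the late 2-cell stage, GABPA degradation was accompanied by lower RNA of a subset of subunits, and by no called increase in the edgeR fit with TMM scaling. Of the 37 genes tested, 9 were lower (all genes, 7.24%) and 0 were higher (all genes, 1.32%) at an adjusted p under 0.05, and 6 passed the study's cut-offs of a 2-fold change and a mean FPKM of 1 as well (all genes, 3.63%), with 0 up past them (all genes, 0.476%). At an unadjusted p under 0.05, edgeR and DESeq2 each had 12 genes with a negative and 2 with a positive change. Of all genes, 21.3% and 21.7% passed this threshold in either direction. With limma there were 12 and 5 (all genes, 22.1%). After adjustment *Ndufv2* was called higher by DESeq2, by limma, and by edgeR with upper-quartile scaling or library totals. *Ndufa5* was called higher by limma. The median log2 change of the 37 genes was -0.14, against 0.02 for all genes. The TPM of 17 of the 37 genes did not overlap between the groups (all genes, 27.4%). By role, 3 of 7 core, 1 of 9 matrix arm, and 5 of 19 membrane arm subunits were lower.

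The largest fall was that of *Ndufa13* (GRIM-19), a membrane-spanning subunit first described as a cell death regulator, on chromosome 8 from 69894180 to 69902558 (GRCm38). It stood at 73.8, 64.7 and 67.9 TPM with DMSO and at 15.3, 14.1 and 13.4 TPM with dTAG13. All treated libraries lay far below all controls, and the log2 change was -2.34 ± 0.13 (adjusted p = 6.48e-06, edgeR quasi-likelihood test with Benjamini-Hochberg adjustment). Of its exonic bases, 30.0% overlap *Tssk6* on the other strand, and the libraries do not mark strand, so reads from that stretch cannot be assigned. *Ndufb9*, a membrane arm subunit of the LYR protein family (chromosome 15 from 58933756 to 58939488), went from 104, 77.7 and 86.0 TPM to 27.3, 25.0 and 15.4 TPM, a log2 change of -2.04 ± 0.23. Its start lies 18 bases from that of *Tatdn1* on the opposite strand, a neighbour shown for context. *Tatdn1* was lower as well (log2 -0.99, adjusted p = 0.0405 by the same edgeR test). Such a neighbour within 1000 bases was found for 23.7% of the 38 genes and 6.80% of all protein-coding genes. In some of the other pairs, the subunit gene and its neighbour moved in opposite directions in the ICM or in 2iES cells. *Ndufa12*, whose promoter windows are given with the motifs, went from 139, 106 and 136 TPM to 32.3, 34.5 and 48.9 TPM, a log2 change of -1.78 ± 0.19. None of these 3 genes had overlapping groups.

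Among the core subunits, *Ndufs1*, which carries several iron-sulfur clusters on the electron path from NADH, stood at 16.0, 15.1 and 22.3 TPM with DMSO and 4.88, 6.57 and 7.30 TPM with dTAG13. This was a log2 change of -1.46 ± 0.21 (adjusted p = 0.00115, edgeR quasi-likelihood test with Benjamini-Hochberg adjustment). *Ndufs3*, a core subunit of the part that leads to the quinone site (chromosome 2 from 90894634 to 90904827), went from 58.2, 47.3 and 55.8 TPM to 24.5, 28.3 and 30.9 TPM, a log2 change of -1.08 ± 0.16. In both genes every treated library was below every control. *Ndufs8* was lower by less, from 304, 349.6 and 296 TPM to 233, 219 and 172 TPM (log2 -0.65 ± 0.14). *Ndufv1* stood at 11.5, 10.4 and 8.14 TPM and then 8.45, 6.78 and 5.57 TPM, so the groups overlapped and the adjusted p was 0.161 by the same edgeR test.

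*Ndufs7* and *Ndufv2* did not pass the test. *Ndufs7*, which holds the last iron-sulfur cluster before the quinone, stood at 66.0, 62.4 and 53.5 TPM with DMSO and at 53.1, 56.8 and 58.9 TPM with dTAG13. *Ndufv2*, the small iron-sulfur partner of *Ndufv1*, was above its controls in every treated library, at 117, 115 and 115 TPM against 77.2, 91.7 and 85.5 TPM (log2 0.37 ± 0.12, adjusted p = 0.0941 by edgeR with Benjamini-Hochberg adjustment). The core group therefore did not move as a whole here.

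In the membrane arm, *Ndufb7*, a subunit on the intermembrane-space side, went from 133, 119 and 127 TPM to 75.2, 58.3 and 53.9 TPM (log2 -1.09 ± 0.15). *Ndufa1*, a small membrane-spanning subunit encoded on the X chromosome, went from 271, 225 and 388 TPM to 171, 133 and 156 TPM (log2 -0.99 ± 0.18), and *Ndufb5* from 41.7, 38.5 and 56.7 TPM to 29.3, 24.3 and 24.4 TPM (log2 -0.76 ± 0.18). The groups did not overlap in any of these genes. *Ndufb5* was the weakest of them: its call was lost with upper-quartile scaling, and without DMSO replicate 3 or any of the dTAG13 replicates. By contrast, *Ndufb6* stood at 392, 352 and 382 TPM with DMSO and 389.9, 366 and 344 TPM with dTAG13, and *Ndufab1* at 359, 368 and 369 TPM and then 437, 416 and 438 TPM (adjusted p = 0.317, edgeR with Benjamini-Hochberg adjustment). Cumulus markers, the other cells an early embryo sample could hold, summed to 3.53 to 5.51 TPM with DMSO and 6.83 to 11.9 TPM with dTAG13, with *Amh* and *Fshr* at 0 throughout, and their part in the result was not tested.

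**Figure D3:**
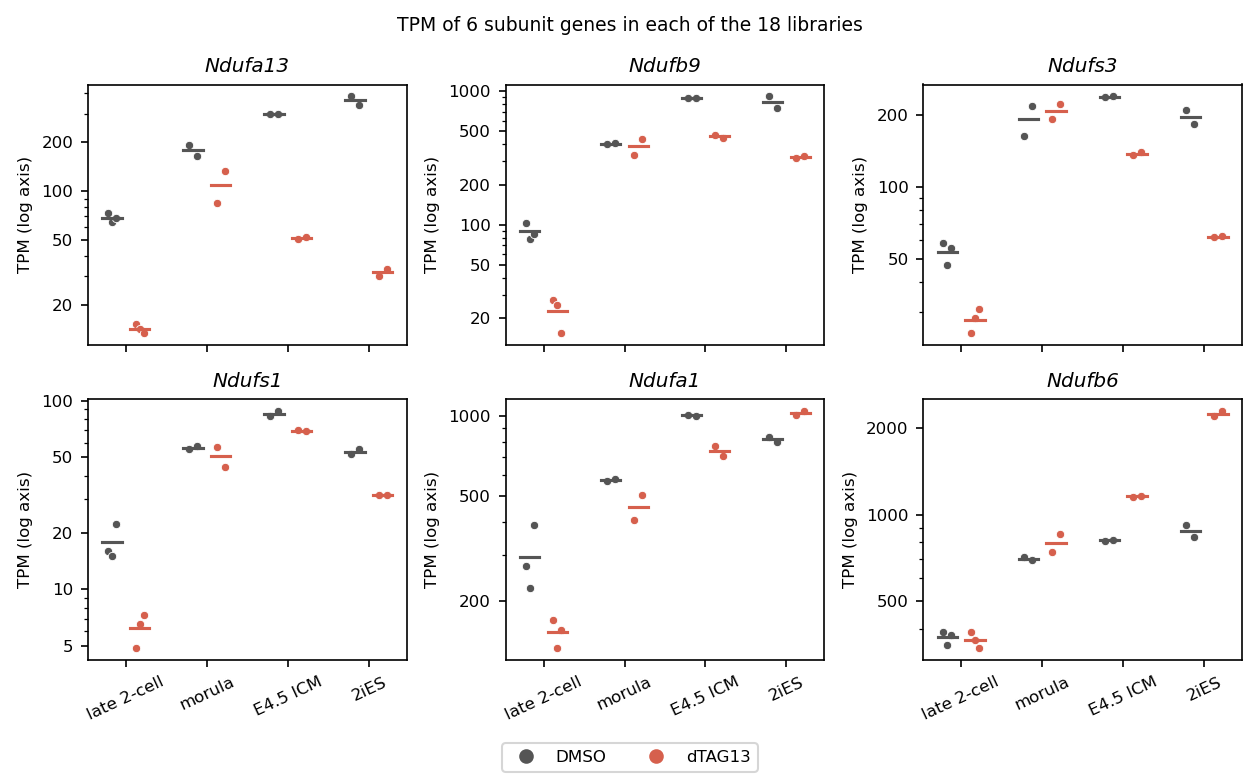
TPM (log axis) of Ndufa13, Ndufb9, Ndufs3, Ndufs1, Ndufa1 and Ndufb6 in each of the 18 libraries, by stage and treatment, with short lines at the group means. Ndufa13 lies lower after dTAG13 at each stage, from 68.8 to 14.3 TPM on average at the late 2-cell stage and from 361 to 31.6 TPM in 2iES cells, while Ndufb6 reaches 2240 TPM in treated 2iES cells.

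In morulae no subunit gene passed the test in the fit of that stage. Of 37 genes, 0 were lower and 0 higher with edgeR after adjustment (all genes, 0.205% and 0.161%), and DESeq2 and limma also called 0. At an unadjusted p under 0.05, each of these tools had 6 genes, 1 with a negative and 5 with a positive change. The share of all genes at this threshold, in either direction, was 13.6% with edgeR, 10.9% with DESeq2 and 11.5% with limma. The median log2 change was 0.15 against -0.02 for all genes. The TPM of 21 of the 37 genes did not overlap between the groups, where 43.6% of all genes did not. The gene with a negative change at the unadjusted threshold was *Ndufa13*, at 193 and 165 TPM with DMSO and 84.3 and 133 TPM with dTAG13 (log2 -0.71 ± 0.24, adjusted p = 0.235 by edgeR with Benjamini-Hochberg adjustment). With the replicate number as a block, or with no filter on low counts, it passed. *Ndufv2* stood at 213 and 317 TPM and then 396 and 374 TPM (log2 0.56 ± 0.21, adjusted p = 0.284 by the same edgeR test). With all 18 libraries in 1 fit *Ndufv2* was called higher, as were *Ndufa9*, *Ndufab1* and *Ndufb10*. *Ndufb9* had 400.4 and 411 TPM with DMSO and 336 and 437 TPM with dTAG13, *Ndufa12* 765 and 806 TPM and then 811 and 742 TPM, and *Ndufs3* 164 and 219.8 TPM and then 194 and 223 TPM. For these 3 genes, each of them lower at the late 2-cell stage, the morula groups overlapped. Of the others lower at that stage, *Ndufs1* overlapped in morulae as well. *Ndufa13*, *Ndufa1*, *Ndufb7* and *Ndufb5* had both treated morula libraries below both controls, and *Ndufs8* had both above.

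The change at the late 2-cell stage was then compared with that in morulae in a model over all 18 libraries. The log2 change was more negative at the late 2-cell stage for 13 of the 38 genes (all genes, 5.79%). The difference was -2.07 ± 0.26 for *Ndufb9*, -1.85 ± 0.20 for *Ndufa12*, -1.72 ± 0.22 for *Ndufa13*, -1.58 ± 0.24 for *Ndufs1* and -1.31 ± 0.20 for *Ndufs3*, all past the threshold by the edgeR test (Benjamini-Hochberg adjusted). For 0 genes was it more positive (all genes, 0.680%), with 1 such gene at an unadjusted p under 0.05 by edgeR and 1 called by DESeq2. The count of 13 fell to 8 with library totals as the scale and to 6 when the other stages were left out of the model. It was 7 without late 2-cell dTAG13 replicate 3, and 8 without late 2-cell DMSO replicate 1 or 2, late 2-cell dTAG13 replicate 1 or morula dTAG13 replicate 2. Stage and the time at which dTAG13 was added differ together between these embryos and cannot be told apart.

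In the E4.5 ICM the subunits moved in both directions. Of 37 genes, 17 were lower and 16 higher, close to the 38.5% and 38.4% among all genes, and only *Ndufa13* passed the study's cut-offs (all genes, 13.2% down and 12.1% up). The median log2 change was -0.05 against 0.01 for all genes, and the TPM of 35 of the 37 genes did not overlap between the groups (all genes, 84.8%). By role, 6 of 7 core subunits were lower with a median of -0.44, while among the matrix arm accessory subunits 3 of 9 were lower and 5 higher, and among the membrane arm subunits 8 of 19 were lower and 9 higher. When all 18 libraries shared the estimate of spread, 8 genes stayed lower (among them *Ndufa13*, *Ndufb9*, *Ndufs3*, *Ndufb7*, *Ndufa12*, *Ndufb5* and *Ndufs8*) and 5 stayed higher (*Ndufb6*, *Ndufab1*, *Ndufb10*, *Ndufa5* and *Ndufc2*).

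Markers of the cell types in the ICM moved with treatment as well. The 12 trophectoderm (TE) markers summed to 253 TPM in each DMSO library and to 1269.6 to 1276 TPM with dTAG13, with 9 of 11 tested higher and none at 0 in a whole group. The 10 EPI markers summed to 1075 to 1112 TPM and then 574 to 581 TPM, with 10 of 10 lower, and the 10 PrE markers to 544 to 557 TPM and then 872 to 880 TPM, with 7 higher and 2 lower. Immunosurgery is meant to remove the TE. The part of these differences in the subunit results was not tested.

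*Ndufa13* had by far the largest change in the ICM, from 300.1 and 298 TPM to 50.8 and 52.6 TPM (log2 -2.57 ± 0.04, adjusted p = 9.33e-38, edgeR quasi-likelihood test with Benjamini-Hochberg adjustment). *Ndufb9* went from 895 and 889 TPM to 468 and 449.6 TPM (log2 -0.99 ± 0.03). *Ndufs3* went from 239 and 240.0 TPM to 136 and 140.0 TPM (log2 -0.85 ± 0.03). The groups were well apart for each of these genes. *Ndufb7* (442 and 450.4 TPM, then 281 and 291 TPM) and *Ndufa12* (445 and 437 TPM, then 298 and 292 TPM) fell by 0.67 and 0.62.

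Several core subunits changed by less than *Ndufs3* in the ICM. *Ndufv1* went from 121 and 119 TPM to 91.3 and 92.3 TPM, and *Ndufs1* from 83.0 and 87.9 TPM to 69.8 and 69.0 TPM. *Ndufs8* went from 321 and 328 TPM to 243 and 245 TPM, and *Ndufs7* from 432 and 438 TPM to 377 and 371 TPM. Their log2 changes lay between -0.45 and -0.25, and those of *Ndufv1*, *Ndufs1* and *Ndufs7* no longer passed when all 18 libraries shared the spread. *Ndufv2* was without a call, at 518 and 501 TPM and then 536 and 525 TPM (log2 -0.01 ± 0.03), but was called higher with upper-quartile scaling or library totals.

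The increases in the ICM were smaller than the leading decreases. *Ndufb6*, of the far part of the membrane arm, went from 811 and 819 TPM to 1155 and 1158 TPM (log2 0.47 ± 0.02). *Ndufab1*, the acyl carrier protein that also serves mitochondrial fatty acid synthesis, went from 1124 and 1124 TPM to 1591 and 1629.9 TPM (log2 0.45 ± 0.03), and *Ndufb10*, an intermembrane-space subunit, from 248 and 248 TPM to 334 and 351 TPM (log2 0.43 ± 0.04). The treated libraries were above the controls in each. Of the exonic bases of *Ndufb6*, 39.0% overlap *Smim27* on the other strand, so its values carry the same limit on strand as *Ndufa13*.

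In 2iES cells 12 of 38 genes were lower (all genes, 28.1%) and 12 higher (all genes, 26.5%), and 5 fell and 2 rose past the study's cut-offs (all genes, 15.6% and 12.4%). The median log2 change was 0.19 against 0.03 for all genes, and with upper-quartile scaling, which shifted the median of all genes to 0.21, 10 genes were lower and 19 higher. The TPM of 31 of the 38 genes did not overlap between the groups (all genes, 77.9%). The number of higher calls fell without dTAG13 replicate 2 and rose without DMSO replicate 1. Of the 7 core subunits 6 were lower, with a median of -0.74 over the 7. Of the 19 membrane arm subunits 5 were lower and 8 higher, and of the 9 matrix arm accessory subunits 1 was lower and 2 higher. EPI markers fell here as well (760 to 788 TPM with DMSO and 432 to 468 TPM with dTAG13, 5 of 10 lower). The sums of TE markers did not separate (113 to 147 TPM and 131 to 138 TPM, *Elf5* at 0 in the controls), with 2 of 9 tested lower and 1 higher. PrE markers were low but rose (1.85 to 2.73 TPM and 4.33 to 5.01 TPM, 4 of 6 tested higher). Their part in the subunit results was not tested.

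*Ndufa13* went from 383 and 339 TPM to 29.9 and 33.4 TPM in 2iES cells, a log2 change of -3.43 ± 0.12 (adjusted p = 1.88e-05, edgeR quasi-likelihood test with Benjamini-Hochberg adjustment). Core subunits were among the genes that followed. *Ndufs3* went from 210.0 and 185 TPM to 62.1 and 62.4 TPM (log2 -1.61 ± 0.11) and *Ndufv1* from 120.1 and 79.2 TPM to 39.2 and 39.1 TPM (log2 -1.39 ± 0.18). *Ndufb9* went from 916 and 749 TPM to 314 and 330.2 TPM (log2 -1.28 ± 0.12). These 4 genes were among the 5 that fell past the study's cut-offs, and none had overlapping groups.

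*Ndufs1*, *Ndufs8* and *Ndufs7* fell by less in 2iES cells. *Ndufs1* went from 52.1 and 55.3 TPM to 31.6 and 31.6 TPM, *Ndufs8* from 398 and 334 TPM to 215 and 218 TPM, and *Ndufs7* from 363 and 298 TPM to 196 and 201 TPM, with log2 changes between -0.74 and -0.64. *Ndufv2*, at 791 and 673 TPM with DMSO and 787 and 837 TPM with dTAG13, was without a call (log2 0.21 ± 0.11, adjusted p = 0.155 by edgeR with Benjamini-Hochberg adjustment), but was called higher with upper-quartile scaling and without DMSO replicate 1. *Ndufa12* fell from 943 and 832 TPM to 485 and 532 TPM (log2 -0.71 ± 0.11), and *Ndufb7* from 814 and 729 TPM to 538 and 544 TPM (log2 -0.41 ± 0.10). The call on *Ndufb7* was lost with upper-quartile scaling and without either dTAG13 library.

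*Ndufb6* rose most in 2iES cells, from 921 and 834 TPM to 2194 and 2286 TPM (log2 1.45 ± 0.10, adjusted p = 9.13e-05, edgeR quasi-likelihood test with Benjamini-Hochberg adjustment). *Ndufa4* rose from an already high level, from 2325 and 2431 TPM to 4687 and 4914 TPM (log2 1.11 ± 0.09). *Ndufab1* went from 1535 and 1399.5 TPM to 2712 and 2907 TPM (log2 0.99 ± 0.10). The treated libraries were above the controls in all 3 genes. *Ndufa4l2*, the relative of *Ndufa4* known from hypoxia, was close to silent, with 7 and 3 expected counts in the DMSO libraries, 14 and 13 in the dTAG13 libraries (adjusted p = 0.0545 by edgeR with Benjamini-Hochberg adjustment) and 0 to 3 in any embryo library.

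**Figure D4:**
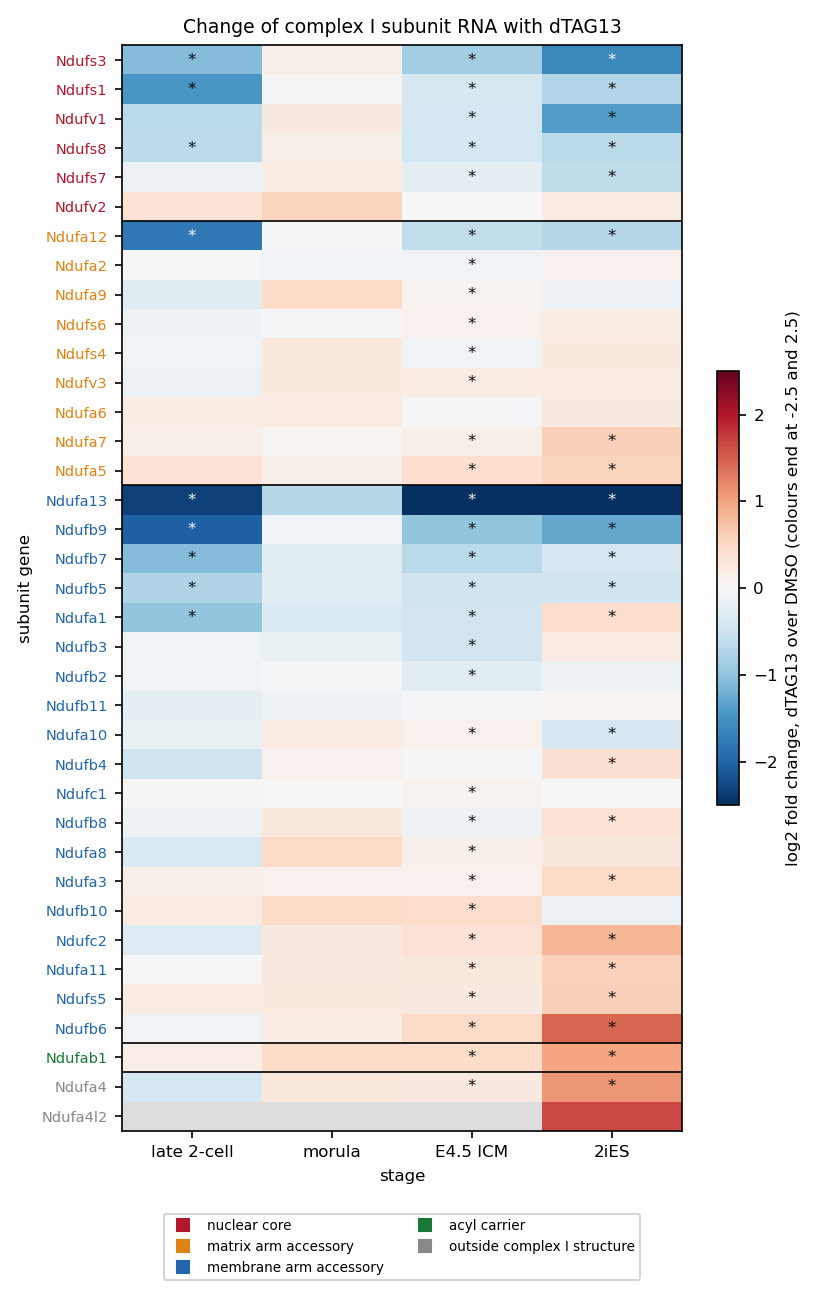
Log2 fold change of dTAG13 over DMSO for the subunit genes (37 rows, by role) at the 4 stages (columns), with an asterisk at an adjusted p under 0.05 and grey where a gene was not tested. Core subunits are at the top, where Ndufs1, Ndufs3 and Ndufs8 are lower at 3 stages each and Ndufv2 has no asterisk.

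Across stages, the same genes recurred among the decreases. The 9 genes lower at the late 2-cell stage were all among the 17 lower in the ICM, and 8 of them were among the 12 lower in 2iES cells. Among all genes lower at the late 2-cell stage, 80.0% of those tested were lower in the ICM and 69.3% in 2iES cells, so a recurrence of this kind was common in the data. The 8 genes lower at all 3 stages were *Ndufa13*, *Ndufb9*, *Ndufa12*, *Ndufb7*, *Ndufb5* and the core subunits *Ndufs1*, *Ndufs3* and *Ndufs8*, with the 2iES calls of *Ndufb5* and *Ndufb7* lost without either dTAG13 library. The ninth was *Ndufa1*, which fell in the ICM (1013 and 998 TPM, then 772 and 707 TPM) and rose in 2iES cells (834 and 798 TPM, then 1008 and 1043 TPM). Its change was -0.46 ± 0.03 in the ICM and 0.45 ± 0.09 in 2iES cells on the log2 scale. The call in 2iES cells was lost without either dTAG13 library.

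Between the ICM and 2iES cells, which share no libraries, 11 of the 37 genes tested in both were lower in both (29.7%) and 9 were higher in both (24.3%), against 22.0% and 15.7% of all 13842 genes tested in both. The latter were *Ndufa11*, *Ndufa5*, *Ndufs5*, *Ndufa4*, *Ndufc2*, *Ndufab1*, *Ndufa3*, *Ndufa7* and *Ndufb6*. With all 18 libraries in 1 fit, *Ndufa11*, *Ndufs5*, *Ndufa4*, *Ndufa3* and *Ndufa7* lost the ICM call. Among the genes lower in both, *Ndufs1*, *Ndufs7* and *Ndufv1* lost it. Apart from *Ndufa1*, the genes with opposite calls were *Ndufb8* (log2 -0.12 in the ICM and 0.34 in 2iES cells) and *Ndufa10* (0.10 and -0.42). The 2iES calls of both were likewise lost without either dTAG13 library. Their ICM calls, and that of *Ndufa1*, were lost with all 18 libraries in 1 fit. For *Ndufa10* the difference of ICM minus 2iES cells did not pass (0.48 ± 0.23, adjusted p = 0.177 by the edgeR test). *Ndufa6*, *Ndufv2*, *Ndufb11* and *Ndufa4l2* had no call at any stage in the edgeR fits per stage with TMM scaling and all libraries. With upper-quartile scaling *Ndufv2* was called higher at the late 2-cell stage, *Ndufv2* and *Ndufa6* in the ICM, and these and *Ndufa4l2* in 2iES cells. With TMM scaling *Ndufv2* was called higher at the late 2-cell stage without DMSO replicate 2, and in morulae with all 18 libraries in 1 fit. Of the 38 genes, 10 passed the study's cut-offs at 1 stage or more. Among all genes the share past them in 1 direction at a single stage ran from 0.154% to 15.6%. The share at 1 stage or more was not counted for all genes, so the 10 cannot be set against it.

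**Figure D5:**
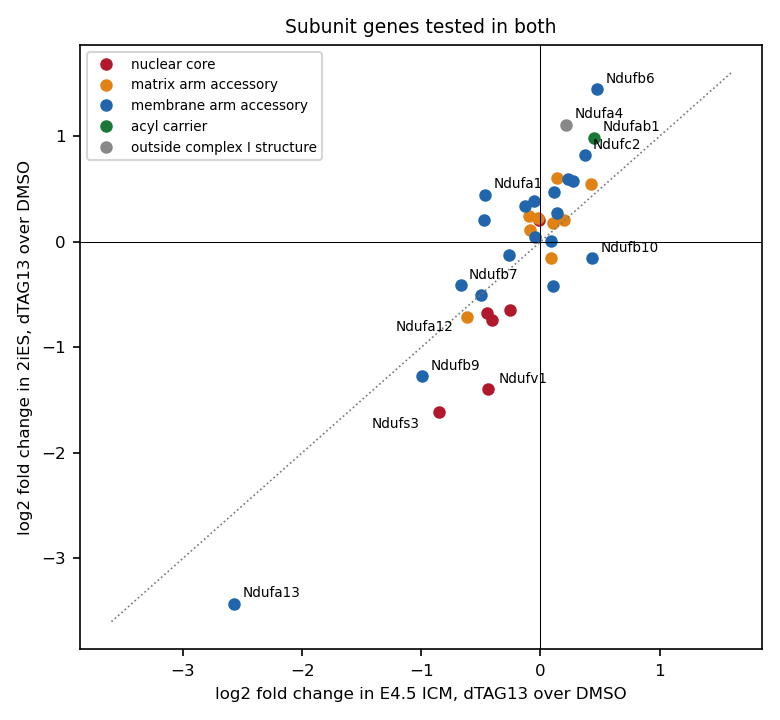
Log2 fold change of dTAG13 over DMSO in the ICM (horizontal) and in 2iES cells (vertical) for subunit genes tested in both, coloured by role, with a dotted line of equal change. Ndufa13 lies at -2.57 and -3.43, Ndufs3, Ndufv1 and Ndufb9 lie in the lower left, and Ndufb6 lies at 0.47 and 1.45.

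The change in 2iES cells was larger than in the ICM for several of these genes, in either direction. In the model over all 18 libraries the log2 change in the ICM was more negative than that in 2iES cells for 6 genes (all genes, 9.93%) and more positive for 5 (all genes, 7.42%). Those more positive included *Ndufv1* (0.91 ± 0.30), *Ndufa13* (0.81 ± 0.24), *Ndufs3* (0.71 ± 0.21) and *Ndufb10* (0.54 ± 0.16), and of these *Ndufb10* rose in the ICM and the others fell further in 2iES cells. Those more negative included *Ndufb6* (-1.01 ± 0.15), *Ndufa1* (-0.95 ± 0.25) and *Ndufa4* (-0.93 ± 0.20). The 5 calls in the positive direction did not hold up when single libraries were left out: 0 remained without 2iES DMSO replicate 1, without 2iES dTAG13 replicate 1, or without either ICM DMSO library, and 1 without any other library but 2iES DMSO replicate 2. The 6 negative calls fell to 2 without any of the ICM libraries and to 3 without 2iES dTAG13 replicate 2. The dose and length of treatment differ between these sets together with the cell type and cannot be told apart from it.

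Against the ICM, the late 2-cell change was more negative for 6 genes (all genes, 10.4%) and more positive for 1 (all genes, 9.87%). *Ndufa12* (-1.19 ± 0.20), *Ndufs1* (-1.07 ± 0.23) and *Ndufb9* (-1.07 ± 0.26) led the former, with *Ndufc2*, *Ndufa4* and *Ndufb6*. For *Ndufa13* the difference was 0.21 ± 0.22 and did not pass. The 6 became 3 without ICM DMSO replicate 1 and 2 without ICM DMSO replicate 2 or dTAG13 replicate 1.

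The mitochondrially encoded subunits form the proton-pumping core of the membrane arm. None was called lower at any of the 4 stages by edgeR, DESeq2 or limma. Among all genes edgeR called 7.24% lower at the late 2-cell stage, 0.205% in morulae, 38.5% in the ICM and 28.1% in 2iES cells. At an unadjusted p under 0.05, 1 negative change was found by edgeR and by DESeq2 (*mt-Nd3* in morulae). The 7 *mt-Nd* genes summed to 33936, 30292 and 27276 TPM with DMSO and 31727, 38204 and 31013 TPM with dTAG13 at the late 2-cell stage. There 1 of 7 was called, *mt-Nd4l*, which was higher (all genes, 1.32%) and stood at 209.9 TPM at most. In morulae the sum went from 21299.7 and 18684 TPM to 16329 and 17951 TPM, so both treated libraries lay below both controls, and the median log2 change of the 7 genes was -0.17 with 0 called. In the ICM the sum went from 13712 and 13542 TPM to 23607 and 23081 TPM. There 6 of the 6 genes tested were higher (all genes, 38.4%), with log2 changes of 0.65 to 0.95. In 2iES cells 2 of 6 were higher (all genes, 26.5%), but the controls differed widely. The sum was 983 TPM in DMSO replicate 1 and 5814 TPM in DMSO replicate 2, against 12190 and 10462 TPM with dTAG13. DMSO replicate 1 of the 2iES cells thus stood apart in mitochondrial RNA. Without it, 13 nuclear subunit genes were lower and 19 higher in 2iES cells, against 12 and 12 with it, with the lone control library assumed to vary like the other group.

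Assembly factors, which build the complex but are not part of it, included decreases past the study's cut-offs. Of 18 tested, 5 were lower at the late 2-cell stage (all genes, 7.24%), 13 in the ICM (all genes, 38.5%) and 9 in 2iES cells (all genes, 28.1%), and 1 was higher in the ICM and 1 in 2iES cells, with medians of -0.18, -0.45 and -0.50. *Ndufaf1*, an early membrane arm assembly factor, and *Ndufaf7*, a methyltransferase, passed the study's cut-offs at all 3 of these stages. The mean level of *Ndufaf1* went from 38.9 to 8.25 TPM at the late 2-cell stage, from 40.6 to 10.3 TPM in the ICM and from 52.0 to 10.6 TPM in 2iES cells. That of *Ndufaf7* went from 112 to 56.9 TPM, from 42.3 to 13.3 TPM and from 70.0 to 12.5 TPM. Also past the cut-offs were *Acad9* at the late 2-cell stage, *Timmdc1* and *Tmem186* in the ICM, and *Ecsit*, *Timmdc1*, *Nubpl*, *Foxred1* and *Dmac2* in 2iES cells.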

How the data were processed

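RNA of Gabpa dTAG/dTAG embryos and 2iES cells was measured by the authors with SMART-Seq v4 and Nextera XT libraries, which do not mark strand. Per the study's methods, the authors trimmed reads with Trimmomatic, aligned them with STAR to GRCm38 and quantified genes with RSEM. The deposited tables give, per gene and library, expected counts (estimated counts that need not be whole), TPM and FPKM, the last 2 scaled by the authors for length and depth. The authors called genes with DESeq2 at an adjusted p of 0.05, a fold change of 2 and a mean FPKM of 1.

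Groups were taken from the sample labels. Here the expected counts, rounded to whole numbers, went into a fit per stage (edgeR 4.0.16, R 4.3.3: quasi-likelihood test, TMM scaling, genes with 10 counts or more in a number of libraries equal to the smaller group), with Benjamini-Hochberg adjustment over all genes tested. Differences between stages were tested as interactions over all 18 libraries, and control stages over the 9 DMSO libraries. Log2 fold changes are given ± SE. Alternatives were upper-quartile scaling, library totals, DESeq2 1.42.0, no filter on low counts, all 18 libraries in 1 fit, a block for the replicate number, leaving out each library, and limma 3.58.1 on log2(TPM + 1). The scripts were tested on simulated counts.

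The members and lists were chosen with earlier results of these data known. Named with values were core subunits, members past the study's cut-offs at any stage, and the 3 largest called changes in each direction at each stage. *Ndufa1*, *Ndufa2*, *Ndufa3*, *Ndufa5*, *Ndufa10*, *Ndufb4*, *Ndufb5*, *Ndufb8*, *Ndufs6* and *Ndufa4l2* and the gene *Tatdn1* were named after their values were seen. Motifs were searched as exact letters in RefSeq promoter windows. P-values measure only the spread between the libraries of a group, and 2 or 3 libraries a group limit their precision. CUT&RUN and ATAC-seq samples of the series were not analysed here, and the values of 1 gene are not reported here.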

Additional observations from a re-analysis of the deposited data

Results flagged for a closer look

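Each value here is a difference between 2 stages in the log2 change with dTAG13, tested as an interaction over all 18 libraries by the edgeR quasi-likelihood test with Benjamini-Hochberg adjustment. For the late 2-cell stage minus the E4.5 ICM, 6 subunit genes had a more negative change (all genes, 10.4%), led by *Ndufa12* (-1.19), *Ndufs1* (-1.07) and *Ndufb9* (-1.07). A more positive change was found for 1 (all genes, 9.87%). For the E4.5 ICM minus 2iES cells, 6 had a more negative change (all genes, 9.93%), led by *Ndufb6* (-1.01), *Ndufa1* (-0.95) and *Ndufa4* (-0.93). A more positive change was found for 5 (all genes, 7.42%), among them *Ndufv1* (0.91), *Ndufa13* (0.81) and *Ndufs3* (0.71). For the late 2-cell stage minus the morula, 13 had a more negative change (all genes, 5.79%), led by *Ndufb9* (-2.07), *Ndufa12* (-1.85) and *Ndufa13* (-1.72). As given above, counts in all of these comparisons fell when single libraries were left out. The first and the third comparison share the late 2-cell libraries.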

How the results depend on the processing

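Of 378 alternative values for single named genes, 371 kept their direction and their side of the threshold, 7 kept the direction without passing (*Ndufa4*, *Ndufs1*, *Ndufs7* and *Ndufv1* in the ICM with all 18 libraries in 1 fit, and *Ndufb7* in 2iES cells with upper-quartile scaling or without either dTAG13 library) and 0 reversed. This tally covers the genes named by rule and leaves out those named after their values were seen. Of the latter, *Ndufb5*, *Ndufa1*, *Ndufa10* and *Ndufb8* lost calls in some settings, as given above. The cause of the following changes was not tested. At the late 2-cell stage the higher calls went from 0 to 1 with upper-quartile scaling, library totals, DESeq2 or all 18 libraries, and to 2 with limma. In morulae the lower calls went from 0 to 1 with no filter on low counts, and the higher calls from 0 to 4 with all 18 libraries. In the ICM all 18 libraries gave 8 lower and 5 higher in place of 17 and 16. In 2iES cells upper-quartile scaling gave 19 higher and 4 up past the study's cut-offs, in place of 12 and 2. For the ICM minus 2iES cells, the more negative calls went from 6 to 3 with no filter and to 12 with only the 2 stages in the model, and the more positive calls from 5 to 8 with only the 2 stages. For the late 2-cell stage minus the morula, the more negative calls went from 13 to 8 with library totals and 6 with only the 2 stages, and the more positive from 0 to 1 with DESeq2. Among controls, limma gave 1 lower from late 2-cell to morula, 2 lower and 17 higher (in place of 10 and 11) from morula to ICM, and 4 lower and 10 higher (in place of 1 and 28) from ICM to 2iES cells, where library totals gave 4 and 14, and upper-quartile scaling and no filter each gave 0 lower.

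Same-numbered libraries did not deviate together (correlations of 0.05, 0.12 and 0.11 at the late 2-cell stage, 0.03 in morulae, -0.05 in the ICM and -0.23 in 2iES cells), so the numbers were not taken to pair the samples, although at the late 2-cell stage each library correlated best with its own number. With the replicate block, lower and higher calls were 9 and 0 at the late 2-cell stage, 1 and 0 in morulae, 17 and 16 in the ICM and 12 and 11 in 2iES cells. Under the block the more positive calls for the ICM minus 2iES cells were 2, and the lower calls from ICM to 2iES controls were 0. The crossed pairing of 2iES cells, added after the data were seen, gave 12 and 12.

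Leaving out single libraries moved the counts of called genes within these ranges: 0 to 1 higher at the late 2-cell stage and in morulae, 1 to 2 down past the study's cut-offs in the ICM, 7 to 19 higher in 2iES cells (19 without DMSO replicate 1, 7 without dTAG13 replicate 2), 2 to 7 more negative for the late 2-cell stage minus the ICM, 2 to 6 more negative and 0 to 5 more positive for the ICM minus 2iES cells, 7 to 12 more negative for the late 2-cell stage minus the morula, and, in controls, 7 to 12 higher from morula to ICM (7 without ICM DMSO replicate 1) and 0 to 1 lower from ICM to 2iES cells. Where a group was left with 1 library, that library was assumed to vary like the others. Depth limits *Ndufa4l2*, whose counts were at most 3 in embryos, and the morula libraries were the shallowest.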
